A study of Mus musculus with 6 samples.

Results

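Collagen is made as procollagen, whose chains are modified and folded in the endoplasmic reticulum and trimmed after secretion. Prolyl 4-hydroxylase adds hydroxyl groups to prolines, which keep the triple helix stable at body temperature. The enzyme is a tetramer of catalytic alpha subunits, encoded by *P4ha1*, *P4ha2* and *P4ha3*, with beta subunits that are protein disulfide isomerase, encoded by *P4hb*. *Serpinh1* encodes HSP47, a chaperone that binds the folded helix, and the products of *Crtap* and *Ppib* work with a prolyl 3-hydroxylase in a complex that also helps the chains to fold. Outside the cell, ADAMTS2 removes the N-propeptide and BMP1 the C-propeptide, and the enhancer protein encoded by *Pcolce* speeds the second step. Tendon consists mostly of type I collagen fibrils, and loss of these enzymes and chaperones is known from inherited disorders of bone, skin and joints.

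These 10 genes were read from the bulk RNA-seq table of the study by their symbols, and all 10 of them were found among its 44788 symbols. The table holds 3 libraries from tail tendons of WT mice and 3 from tail tendons of mice without *Mkx* (Mkx-/-), a homeobox transcription factor of tendon cells. Both genotypes were on the C57BL/6 strain, and no group carried a Cre or received a treatment. The labels give an age of 3 weeks, whereas the study's text gives a different age. The sources restrict the knockout to no cell type or age, so these libraries do not separate a difference made within tendon cells from one that began elsewhere. RNA of whole minced tendon was extracted with TRIzol and sequenced on the Ion Proton system. The question of the comparison was which transcripts differ in Mkx-/- tendons. The study reported ectopic bone in Mkx-/- tail tendons at a later age than the labels give for these libraries.

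The libraries held between 10835070 and 14160301 counts. *Mkx* had 1381 to 1825 counts in WT and 491 to 620 in Mkx-/- libraries (138 ± 4.92 against 45.7 ± 9.68 CPM, SD, n = 3; edgeR adjusted p = 0.00183), so reads remained on the gene. *Col1a1*, *Col1a2* and *Sparc* took 42.0 to 48.5% of the counts in WT and 28.3 to 34.8% in Mkx-/- libraries. WT replicate 3 came from a male mouse by its *Xist* and *Ddx3y* counts, and the other 5 libraries came from females. WT replicate 1 stood apart from the other WT libraries, with a chi-square per degree of freedom of 34.8 and 36.4 against them and 7.59 between those 2. Among the tendon markers, 10 of 10 were detected, with sums of 159130 to 253680 CPM in WT and 132710 to 188960 CPM in Mkx-/- libraries. Most of each sum was *Col1a1* (130860 to 225740 and 96452 to 149210 CPM). By edgeR 1 was called, *Thbs4*, which was higher (log2 fold change 1.27, adjusted p = 0.0118), while 5 had an unadjusted p under 0.05. DESeq2 called 5, with *Thbs4* and *Comp* higher and *Scx*, *Egr1* and *Col1a1* lower (DESeq2 log2 fold changes -1.15, -1.14 and -0.69 for the last 3). Summed skeletal muscle markers lay at 103 to 450 CPM in WT and 614 to 3172 CPM in Mkx-/- libraries (3 of 15 called higher by edgeR, 14 at an unadjusted p under 0.05 and 7 by DESeq2). Schwann cell markers lay at 8146 to 10775 and 12650 to 23481 CPM (0 of 8 called by edgeR, 8 at an unadjusted p under 0.05 and 8 by DESeq2). Cartilage markers lay at 544 to 1079 and 813 to 1324 CPM (3 of 7 higher by edgeR, 4 unadjusted and 4 by DESeq2). *Col2a1* made up most of the cartilage sums (476 to 997 and 537 to 954 CPM), whereas the called *Acan*, *Matn3* and *Ucma* had log2 fold changes of 2.20, 1.45 and 3.47. Endothelial markers lay at 64.7 to 84.6 and 115 to 159 CPM (1 of 10 higher by edgeR, 6 unadjusted and 4 by DESeq2). Macrophage and leukocyte markers lay at 439 to 488 and 290 to 351 CPM (1 of 9 lower by edgeR, 8 at an unadjusted p under 0.05 and 2 by DESeq2). All 9 had a negative log2 fold change. Skin markers lay at 14.7 to 32.0 and 35.6 to 39.95 CPM (1 of 7 higher by edgeR, 6 unadjusted and 3 by DESeq2, with *Trp63* lower). Osteoblast markers lay at 2.28 to 3.44 and 6.18 to 6.5 CPM (0 of 3 called by edgeR, 2 at an unadjusted p under 0.05 and 1 by DESeq2). These sums cover *Runx2*, *Alpl* and *Ifitm5* alone, and *Ifitm5* had a log2 fold change of 0.04. The list held 8 genes, and *Sp7*, *Bglap*, *Ibsp*, *Dmp1* and *Phex* had too few counts for a test. The most abundant of them, *Ibsp*, had 7, 9 and 23 counts in WT and 12, 10 and 8 in Mkx-/- libraries. The cartilage marker *Matn1* was at 0 in every library. Of all tested genes, edgeR called 3.18% higher and 2.26% lower, and DESeq2 called 5.41% and 4.04%. The share of all genes with an unadjusted p under 0.05 was not counted, so the unadjusted counts have no background beside them. Fewer cells of a type and less RNA per cell cannot be told apart in such tissue, and the part of these cell types in the differences below was not tested.

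The promoters of the 3 alpha subunit genes and of *Adamts2* are shown because these genes carried the largest differences of the group. Each is the RefSeq sequence (GRCm38.p6) from 250 bases before to 50 bases after the gene's start, read 5′ to 3′ on the gene's own strand. RefSeq promoters were matched for 9 of the 10 genes, all except *Bmp1*. Capitals mark ACGTG on either strand (written CACGT on the other), the core of the sites bound by hypoxia-inducible factors, for which the first and second alpha subunit genes are known targets.
P4ha1 (chr10:59323046-59323345, plus strand): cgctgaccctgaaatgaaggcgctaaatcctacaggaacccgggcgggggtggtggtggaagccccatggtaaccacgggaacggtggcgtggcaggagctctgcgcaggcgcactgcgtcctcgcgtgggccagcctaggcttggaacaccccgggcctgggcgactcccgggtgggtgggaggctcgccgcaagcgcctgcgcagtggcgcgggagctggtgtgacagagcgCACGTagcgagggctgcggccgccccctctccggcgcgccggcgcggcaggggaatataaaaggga
P4ha2 (chr11:54100674-54100973, plus strand): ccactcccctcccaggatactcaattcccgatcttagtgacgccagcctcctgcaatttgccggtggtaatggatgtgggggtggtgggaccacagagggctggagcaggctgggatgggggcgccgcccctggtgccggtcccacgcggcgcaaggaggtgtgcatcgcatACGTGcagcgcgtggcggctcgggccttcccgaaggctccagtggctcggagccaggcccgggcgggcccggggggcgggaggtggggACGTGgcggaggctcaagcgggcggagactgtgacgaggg
P4ha3 (chr7:100285270-100285569, plus strand): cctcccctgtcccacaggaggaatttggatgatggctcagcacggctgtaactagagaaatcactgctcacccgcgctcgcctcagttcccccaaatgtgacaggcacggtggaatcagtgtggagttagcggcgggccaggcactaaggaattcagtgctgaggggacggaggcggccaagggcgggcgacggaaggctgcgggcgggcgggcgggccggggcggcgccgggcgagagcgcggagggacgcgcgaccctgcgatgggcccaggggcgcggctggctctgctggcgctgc
Adamts2 (chr11:50601835-50602134, plus strand): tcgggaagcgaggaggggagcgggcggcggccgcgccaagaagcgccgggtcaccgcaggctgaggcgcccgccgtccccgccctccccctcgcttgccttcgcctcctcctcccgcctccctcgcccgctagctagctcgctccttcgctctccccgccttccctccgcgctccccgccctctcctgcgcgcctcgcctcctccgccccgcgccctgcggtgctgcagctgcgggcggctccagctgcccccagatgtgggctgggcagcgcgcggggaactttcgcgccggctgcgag
ACGTG occurred 1 time in the *P4ha1* promoter and 2 times in that of *P4ha2*, but 0 times in those of *P4ha3* and *Adamts2*. Among the other members it occurred 2 times each in *P4hb* and *Ppib*, 1 time in *Serpinh1*, and 0 times in *Crtap* and *Pcolce*. Of the 32851 promoters in the same table, 19.6% held it on either strand. The GC-rich motif GGGCGG, searched on both strands like the others, was found 5 times each in *P4ha3* and *Adamts2*, 4 times in *P4ha2* and 2 times in *P4ha1*. It was also found 3 times each in *P4hb* and *Ppib* and 1 time each in *Serpinh1*, *Crtap* and *Pcolce*. All 9 windows therefore held it, as did 35.7% of all promoters. ACANNTGT, an inverted repeat bound by homeodomain proteins related to Mkx, was in 0 of the 9 windows and in 7.38% of all promoters. These are matches of letters in a window of 300 bases, and the RNA counts do not show which of them is bound.

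All 10 genes passed the filter on low counts and were tested among 14550 genes by edgeR's quasi-likelihood test. *P4ha2* rose and *Adamts2* fell in Mkx-/- tendons at an adjusted p under 0.05, and the other 8 genes were not called. The background shares were 3.18% of all tested genes called higher (463) and 2.26% called lower (329). Scaling by library size alone moved the median log2 fold change of all genes to 0.25 and gave 1358 higher and 197 lower. The same pair passed when a log2 fold change above 1 or below -1 was also required, beside 1.89% of all genes higher and 1.33% lower. DESeq2 called 2 of the 10 higher (5.41% of all genes), the second being *P4ha3*, and 1 lower (4.04%). In 3 of the 10 genes, *P4ha2*, *P4ha3* and *Adamts2*, the genotypes did not overlap, as in 28.2% of all genes. With 1 call in each direction, these counts describe single genes rather than the group. The median log2 fold change of the 10 was -0.041, that of all tested genes was -0.0037, and 6 of the 10 lay within 0.25 of 0, a span close to the middle 50% of all genes (-0.234 to 0.245). The libraries are labelled as replicates of a genotype without further detail, so the p-values measure the spread between these samples.

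**Figure D1:**
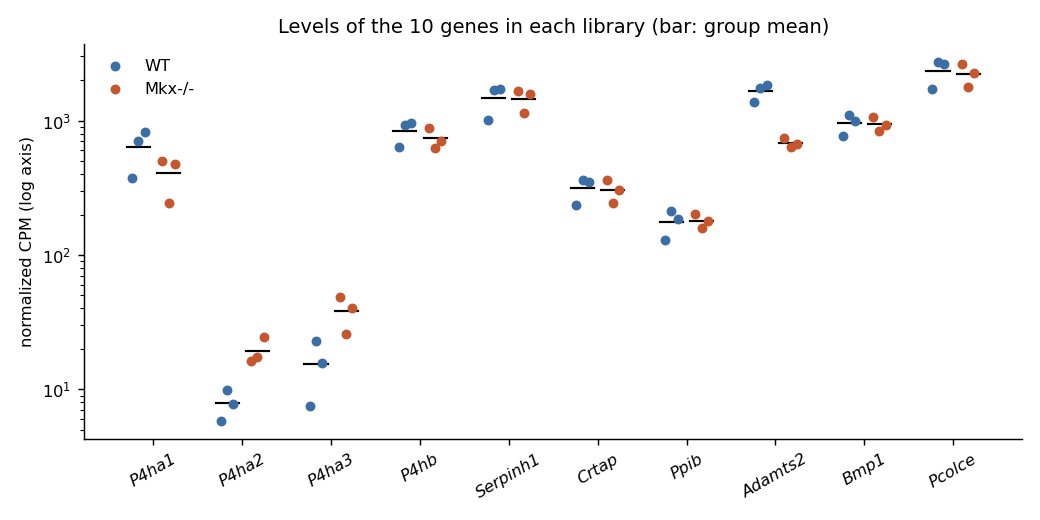
Levels of the 10 genes in each library as normalized CPM on a log axis, with WT in blue, Mkx-/- in orange and a bar at each group's mean. The Mkx-/- libraries lie above all WT libraries in P4ha2 and P4ha3 and below all of them in Adamts2 (739, 631 and 674 against 1381, 1747 and 1853 CPM). In the other 7 genes the groups overlap.

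**Figure D2:**
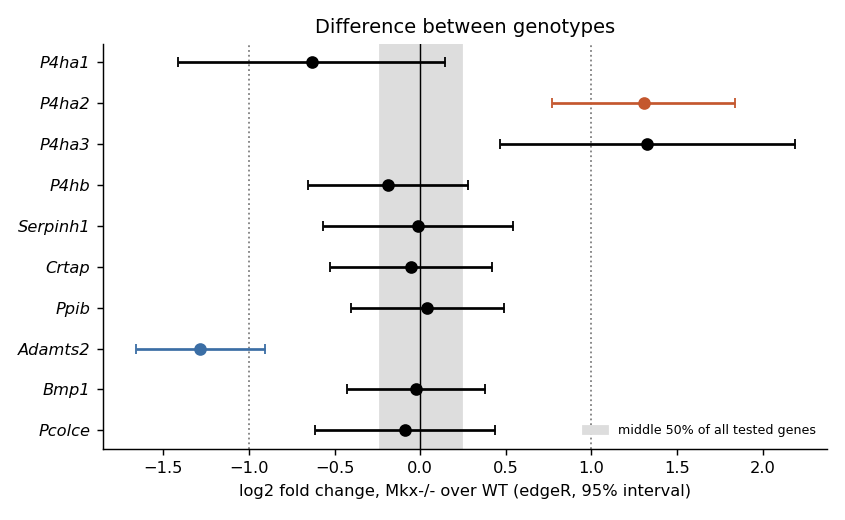
Log2 fold change of each gene, Mkx-/- over WT, from edgeR, with its 95% interval, beside a grey band for the middle 50% of all tested genes and dotted lines at -1 and 1. P4ha2 in orange (1.31) was called higher and Adamts2 in blue (-1.29) lower, P4ha3 has an interval above 0 but an adjusted p of 0.082, and the intervals of the other 7 genes span 0.

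Among the alpha subunit genes, the most abundant, *P4ha1*, did not pass the test, while the minor pair lay higher in every Mkx-/- library. *P4ha1* (chr10:58786044-58836052, plus strand, mm9) had 374, 699.6 and 824 normalized CPM in WT replicates 1, 2 and 3, and 502, 246 and 474 CPM in Mkx-/- replicates 1, 2 and 3. WT replicate 1 and Mkx-/- replicate 2 were the low libraries, and the groups overlapped. The means were 633 ± 232 and 407 ± 141 CPM (SD, n = 3), with a log2 fold change of -0.635 (95% interval -1.41 to 0.14, edgeR adjusted p = 0.316). Its estimate moved with single libraries, from -0.37 without Mkx-/- replicate 2 (adjusted p = 0.588) to -0.905 without WT replicate 1 (adjusted p = 0.0925).

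*P4ha2* (chr11:53913597-53945167, plus strand) encodes a second form of the catalytic subunit. Its level was 5.83, 9.91 and 7.85 CPM in the WT libraries and 16.3, 17.4 and 24.4 CPM in the Mkx-/- libraries. All 3 Mkx-/- libraries lay above all WT libraries. The mean rose 2.47-fold from 7.86 ± 2.04 to 19.4 ± 4.41 CPM, a log2 fold change of 1.31 (SE 0.234, 95% interval 0.77 to 1.84, edgeR adjusted p = 0.0199). The gene is lowly expressed, with 74, 101 and 98 counts in WT and 178, 247 and 308 counts in Mkx-/- libraries. The call was lost without WT replicate 3, the male library (log2 fold change 1.29, adjusted p = 0.0798), and without Mkx-/- replicate 3 (1.10, adjusted p = 0.0593).

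*P4ha3* (chr7:107434030-107468209, plus strand), the third form, had 7.48, 22.8 and 15.8 CPM in WT and 48.9, 25.9 and 40.1 CPM in Mkx-/- libraries. The groups did not overlap, but the gap between WT replicate 2 and Mkx-/- replicate 2 was narrow and the spread within each genotype wide. The means were 15.3 ± 7.65 and 38.3 ± 11.6 CPM, 2.5-fold apart, with a log2 fold change of 1.32 (SE 0.376, 95% interval 0.46 to 2.19). This did not pass in edgeR (adjusted p = 0.082), and DESeq2 gave an adjusted p of 0.00473. Across all settings tried the adjusted p ran from 0.00341 to 0.200, with a call in 3 of 16.

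The make-up of the alpha subunit counts was also compared within each library, where no scaling enters. These shares were chosen after the counts were seen, so they restate the levels above and are not separate support. *P4ha2* and *P4ha3* together took 3.44, 4.46 and 2.79% of the counts of the 3 genes in WT and 11.5, 15.0 and 12.0% in Mkx-/- libraries. The groups were far apart relative to their spread, at 3.56 ± 0.845 and 12.8 ± 1.88% (two-sided exact permutation test, p = 0.1, the smallest that 3 against 3 libraries allow). After division by transcript length the shares were 5.97 ± 1.37 and 20.1 ± 2.75%. For each 100 counts of *P4ha1* there were 1.31 ± 0.317 counts of *P4ha2* in WT and 5.15 ± 1.91 in Mkx-/- libraries, a log2 difference of 1.94. The same ratio for *P4ha3* was 2.39 ± 0.75 against 9.57 ± 1.04, a log2 difference of 2.04. Neither ratio overlapped between the genotypes (exact permutation p = 0.1 each). *P4ha1* still made up 88.5, 85.0 and 88.0% of the counts in the Mkx-/- libraries, and the 3 genes together summed to 656 ± 239 CPM in WT against 465 ± 153 CPM in Mkx-/-, ranges that overlapped.

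*P4hb* (chr11:120421612-120434567, minus strand), the shared beta subunit that also serves as a disulfide isomerase for other proteins, had 635, 919.8 and 963 CPM in WT and 883, 622 and 705 CPM in Mkx-/- libraries. The groups overlapped, with means of 839 ± 178 and 736 ± 134 CPM. Its log2 fold change was -0.19 (95% interval -0.66 to 0.28, edgeR adjusted p = 0.639). Per 100 counts of *P4hb* there were 73.5 ± 13.5 counts of *P4ha1* in WT and 54.6 ± 14.03 in Mkx-/- libraries, a difference within the overlap of the groups (exact permutation p = 0.2).

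**Figure D3:**
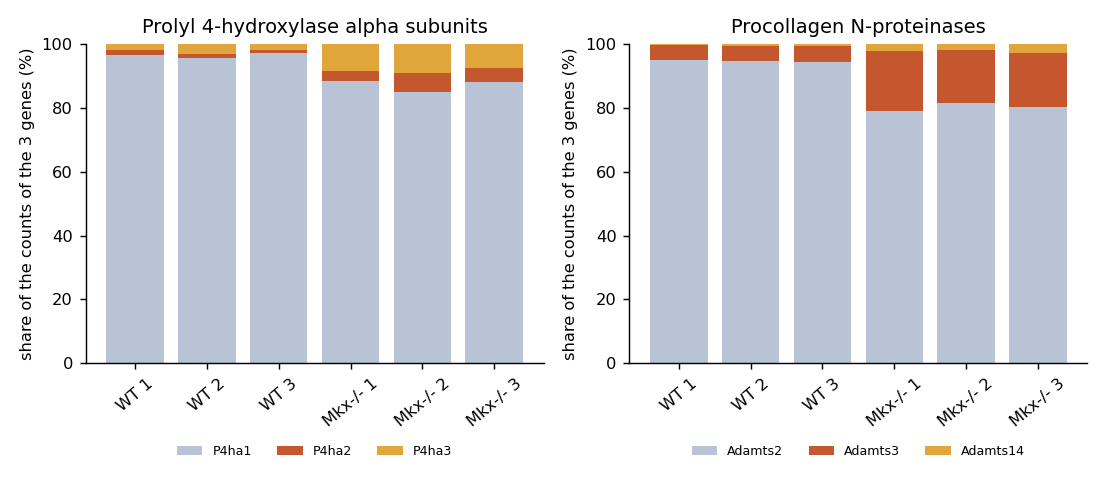
Share of each gene among the counts of the 3 prolyl 4-hydroxylase alpha subunit genes (left) and of the 3 procollagen N-proteinase genes (right), as stacked bars in percent for each library. P4ha1 takes 95.5 to 97.2% in WT and 85.0 to 88.5% in Mkx-/- libraries, and Adamts2 94.5 to 94.98% and 79.0 to 81.6%.

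The chaperone genes showed no call, and each had overlapping groups. *Serpinh1* (chr7:106493885-106501740, minus strand) had 1015, 1678 and 1716 CPM in WT and 1669, 1132 and 1565 CPM in Mkx-/- libraries, so that the low library of each genotype was close to the other. Its log2 fold change was -0.01 (95% interval -0.57 to 0.54, edgeR adjusted p = 0.983). A change of more than about 1.5-fold in either direction is outside that interval, whereas smaller ones are not. Scaled by library size alone, the estimate was 0.25, and those of *P4hb* (0.071), *Crtap* (0.205), *Bmp1* (0.235) and *Pcolce* (0.17) also turned positive, all without a call.

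*Crtap* (chr9:114284252-114299793, minus strand) and *Ppib* (chr9:65907976-65914436, plus strand) encode cartilage-associated protein and cyclophilin B, partners in the prolyl 3-hydroxylation complex. *Crtap* had 236, 360.1 and 347 CPM in WT and 361, 243 and 304 CPM in Mkx-/- libraries, with a log2 fold change of -0.06 (95% interval -0.53 to 0.42, edgeR adjusted p = 0.908). *Ppib* had 128, 212 and 184 CPM in WT and 204, 158 and 178 CPM in Mkx-/- libraries, with a log2 fold change of 0.04 (95% interval -0.405 to 0.49, adjusted p = 0.93). The pair kept to a narrow ratio in all libraries, with 154 to 188 counts of *Crtap* per 100 of *Ppib* (181 ± 9.60 in WT and 167 ± 12.0 in Mkx-/- tendons, exact permutation p = 0.3). Genes on the opposite strand overlap exons of both, but *4930520O04Rik* had at most 4 counts and *Snx22* at most 5 in any library.

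Of the 3 processing genes, *Adamts2* fell and the 2 genes of C-propeptide removal did not pass the test. *Adamts2* (chr11:50415586-50621075, plus strand) encodes the main procollagen N-proteinase. Its level was 1381, 1747 and 1853 CPM in WT and 739, 631 and 674 CPM in Mkx-/- libraries. Every Mkx-/- library lay below every WT library, and the spread among Mkx-/- libraries was small. The means of 1660.3 ± 248 and 681 ± 54.3 CPM leave 41.0% of the WT level, a log2 fold change of -1.29 (SE 0.164, 95% interval -1.66 to -0.91, edgeR adjusted p = 0.00462). The gene was called in 16 of 16 alternative settings, with an adjusted p of at most 0.0333 and log2 fold changes between -1.40 and -1.03. Without WT replicate 1 the log2 fold change was -1.40 (adjusted p = 0.00159), and without WT replicate 3, the male library, it was -1.22 (adjusted p = 0.0278). A lincRNA gene on the opposite strand, *Gm12198*, overlaps exons of *Adamts2* and was not analysed here.

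*Bmp1* (chr14:70874364-70920067, minus strand), the C-proteinase, had 773, 1098 and 997 CPM in WT and 1061, 832 and 924 CPM in Mkx-/- libraries. The log2 fold change was -0.025 (95% interval -0.43 to 0.38, edgeR adjusted p = 0.957). *Pcolce* (chr5:138046331-138055012, minus strand), its enhancer, had 1712, 2731 and 2626 CPM in WT and 2619, 1765 and 2261 CPM in Mkx-/- libraries, with a log2 fold change of -0.09 (95% interval -0.62 to 0.44, adjusted p = 0.863). In both genes the groups overlapped almost completely. The ratio of *Pcolce* to *Bmp1* was alike, at 245 ± 21.2 and 235 ± 19.5 counts per 100 (exact permutation p = 0.5). *Fbxo24* overlaps *Pcolce* on the same strand but had at most 27 counts in a library. In contrast, there were 179, 159 and 186 counts of *Adamts2* per 100 of *Bmp1* in WT and 69.6, 75.8 and 72.9 in Mkx-/- libraries, with no overlap (log2 difference -1.26, exact permutation p = 0.1).

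The remaining N-proteinase genes lay higher in Mkx-/- tendons. *Adamts3* rose from 82.4 ± 14.5 to 148 ± 25.7 CPM (log2 fold change 0.85, edgeR adjusted p = 0.0342), a call that remained only when WT replicate 1 was the library left out (adjusted p up to 0.111). *Adamts14* had 9.78 ± 3.18 and 19.4 ± 4.46 CPM and did not pass in edgeR (log2 fold change 0.99, adjusted p = 0.0734), while DESeq2 gave 0.013. *Adamts2* therefore took 94.98, 94.8 and 94.5% of the counts of these 3 genes in WT and 79.0, 81.6 and 80.3% in Mkx-/- libraries, with no overlap (exact permutation p = 0.1). Per length these shares, also chosen after the counts were seen, were 94.7 ± 0.265 and 80.2 ± 1.28%. The sum of the 3 genes was 1753 ± 265 CPM in WT against 849 ± 81.4 CPM in Mkx-/-, so the higher counts of the other two did not make up the difference in *Adamts2* at the level of RNA.

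Longer transcripts yield more counts, so the ratios of counts above compare libraries rather than genes. To order the 10 genes by level, CPM was divided by the kilobases of the longest coding transcript in the GENCODE annotation of mm9. The exons of all transcripts together cover 3823 bases in *Pcolce* and 6239 in *P4ha2*, against 1626 and 2263 in the longest coding transcript. The annotation used for counting is not known, so the levels per kb, and with them the lead of *Pcolce*, depend on the length chosen. In WT tendons the order was *Pcolce* (1449 CPM per kb), *Serpinh1* (615), *P4hb* (293), *Bmp1* (254), *Adamts2* (229), *Crtap* (188), *Ppib* (182), *P4ha1* (156), *P4ha3* (6.39) and *P4ha2* (3.48). The ranges of the 3 WT libraries were apart only after *Pcolce*, after *Serpinh1* and after *P4ha1*, and the 6 genes from *P4hb* to *P4ha1* formed a run in which the range of each overlapped the next. In Mkx-/- tendons *Adamts2* was eighth, at 93.7 CPM per kb, behind *Ppib* (187), *Crtap* (181) and *P4ha1* (101), and it overlapped only *P4ha1*. *P4ha3* (15.9) and *P4ha2* (8.55) stayed last and overlapped each other, and the order of the first 4 genes was the same as in WT.

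Because type I collagen is the main client of these proteins, each gene was also set against the counts of *Col1a1* plus *Col1a2* in the same library. These summed to 443240 ± 77519 CPM in WT against 243060 ± 50571 CPM in Mkx-/-, with no overlap, although neither gene alone was called by edgeR (log2 fold changes -0.68 and -1.02, adjusted p = 0.287 and 0.0933). DESeq2 called both lower (adjusted p = 0.0491 and 5.71e-07). Relative to that sum, 8 of the 10 genes lay higher in every Mkx-/- library than in any WT library, *Adamts2* lay lower, and *P4ha1* overlapped. Type I counts took a smaller share of the Mkx-/- libraries. Relative to type I counts, 61.7% of all tested genes lay higher in every Mkx-/- library than in any WT library. By the same ratio 0.845% lay lower in every Mkx-/- library, as *Adamts2* did. The log2 difference of all genes on this measure had a median of 0.871 (quartiles 0.638 and 1.116), so the values near it do not set a gene apart. *Serpinh1* had 2.86, 3.37 and 3.59 counts per 1000 type I counts in WT and 5.54, 5.28 and 7.33 in Mkx-/- libraries, 1.84-fold by their geometric means. *P4hb*, *Crtap*, *Ppib*, *Bmp1* and *Pcolce* had log2 differences of 0.69, 0.82, 0.94, 0.85 and 0.79 on this measure, within the quartiles of all genes. *P4ha2* and *P4ha3* lay above the quartiles with 2.18 and 2.28, and *P4ha1* below them with 0.24. *Adamts2* had 3.90, 3.51 and 3.88 counts per 1000 in WT and 2.45, 2.94 and 3.16 in Mkx-/- libraries, a log2 difference of -0.41. The 10 ratios share 1 denominator, so they are not independent of each other. Of 16 ratios compared within libraries, 12 reached the smallest exact permutation p of 0.1, which became 0.133 after Benjamini-Hochberg adjustment, so none passes 0.05 in a design of this size.

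**Figure D4:**
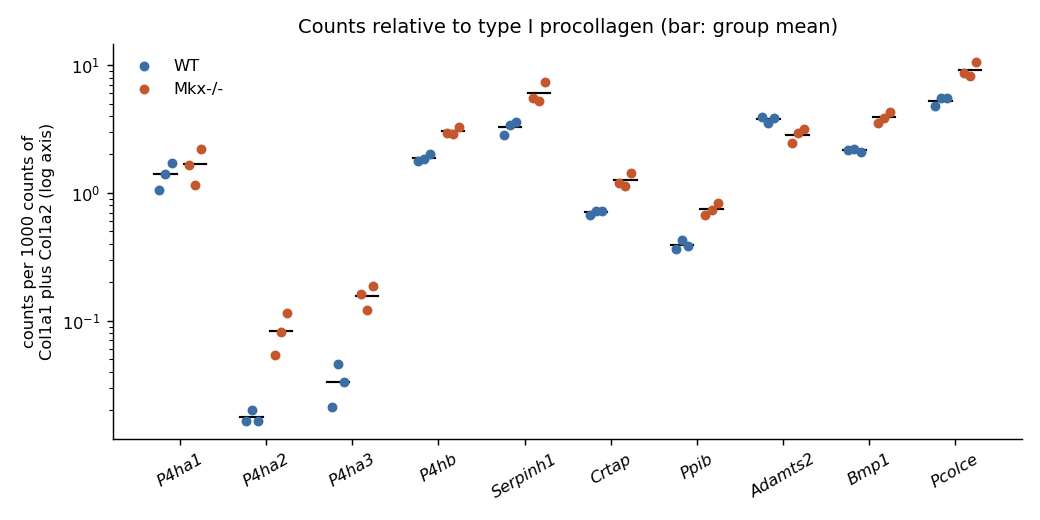
Counts of each gene per 1000 counts of Col1a1 plus Col1a2 in the same library, on a log axis, with WT in blue, Mkx-/- in orange and a bar at each group's mean. Mkx-/- libraries lie above all WT libraries in 8 genes, as in 61.7% of all tested genes, and below them in Adamts2 (2.45 to 3.16 against 3.51 to 3.90). In P4ha1 the groups overlap.

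The 10 genes varied together within each genotype. WT replicate 1 was the lowest WT library in 10 of 10 genes, whereas it was lowest in 38.0% of all tested genes, and Mkx-/- replicate 2 was the lowest of its group in 9 of 10, against 34.7% of all genes. *P4ha2* was the exception, with its lowest level in Mkx-/- replicate 1. The deviations in log2 CPM from the group's mean were widest in *P4ha3* (-0.89 in WT replicate 1) and *P4ha1* (-0.68 in WT replicate 1 and -0.66 in Mkx-/- replicate 2), and narrowest in *Adamts2* (-0.26 and -0.11). The summed level of the 10 genes was 6267, 9478 and 9534 CPM in WT and 8103, 5671 and 7149 CPM in Mkx-/- libraries. The low libraries recurred in the 45 tested genes of the related lists, where WT replicate 1 was the lowest WT library in 34 and Mkx-/- replicate 2 the lowest of its group in 34. By list these counts were 10 and 12 of 12 genes in procollagen export, 7 and 6 of 9 in prolyl 3-hydroxylation and folding, 6 and 5 of 6 disulfide isomerases, 8 and 6 of 11 fibrillar chains, and 3 and 5 of 7 other proteinases. Of the 8 marker lists, the sums for tendon, cartilage, osteoblast and skin were also lowest in WT replicate 1 and Mkx-/- replicate 2, and those for endothelium and Schwann cells were lowest in WT replicate 1 only. Sums for skeletal muscle and for macrophages were highest among WT libraries in replicate 1 (450 and 488 CPM). The source of the shared variation was not tested.

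**Figure D5:**
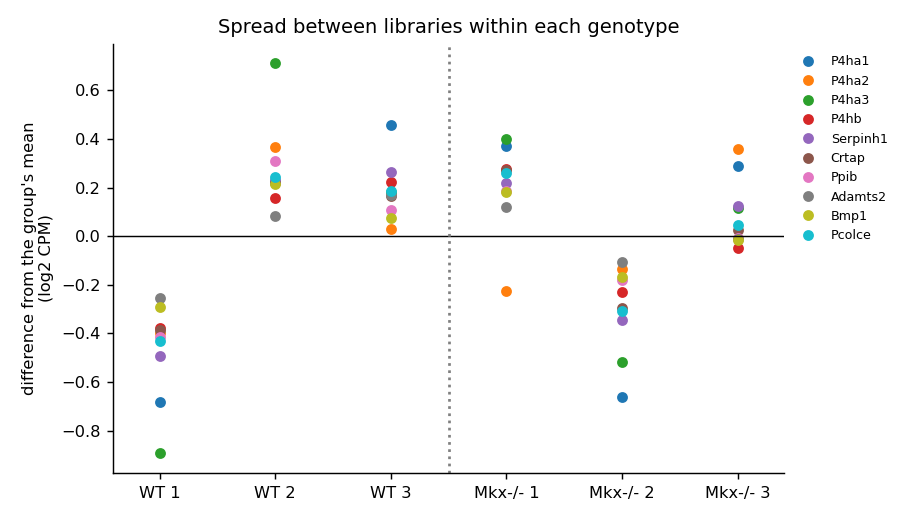
Difference of each library from its genotype's mean in log2 CPM, one colour per gene, with WT on the left of the dotted line and Mkx-/- on the right. All 10 genes lie below 0 in WT replicate 1 and in Mkx-/- replicate 2, and the distance is largest for P4ha3 and P4ha1.

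Related genes were described from 5 lists of the same pathway, in which 6 of 45 tested genes rose and 3 fell, with a median log2 fold change of -0.031. Of all tested genes 3.18% were called higher and 2.26% lower. The lists were chosen with earlier results of these data known, so their counts describe the listed genes only. Of 9 genes of prolyl 3-hydroxylation and collagen folding, 2 fell. *Leprel1*, which encodes prolyl 3-hydroxylase 2, fell from 89.3 ± 10.2 to 33.8 ± 5.66 CPM (log2 fold change -1.40, edgeR adjusted p = 0.00307) and was called without any of the 6 libraries. *Fkbp9*, a prolyl isomerase gene of the endoplasmic reticulum, fell from 1736 ± 200 to 1056 ± 123 CPM (-0.72, adjusted p = 0.0422), but it remained called only when WT replicate 1 was the library left out, with an adjusted p of up to 0.155, and was lost under library-size scaling (0.0523). The others that are most abundant did not pass, with log2 fold changes of -0.24 for *Fkbp10*, -0.16 for *Leprel2* and 0.07 for *Lepre1*, whose product is the 3-hydroxylase of the complex with *Crtap* and *Ppib* (adjusted p = 0.523, 0.586 and 0.901).

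Of the other proteinases, enhancers and activators, 3 of 7 tested genes rose, one being *Adamts3*. *Pcsk5* and *Pcsk6* encode proprotein convertases, proteases that activate other enzymes by cleavage. *Pcsk5* rose from 29.6 ± 3.52 to 112 ± 16.0 CPM (log2 fold change 1.925, edgeR adjusted p = 0.000878) and was called without any of the 6 libraries. *Pcsk6* rose from 189 ± 11.2 to 305 ± 11.1 CPM (0.69, adjusted p = 0.0165), and lost the call without WT replicate 2 or 3 or Mkx-/- replicate 2 or 3, with an adjusted p of up to 0.0854. *Furin*, the best known convertase, and *Pcolce2*, a second enhancer, did not pass (-0.36 and -0.13, adjusted p = 0.23 and 0.70). *Tll2*, *Mep1a* and *Mep1b* had too few counts for a test, and *Mep1a* was at 0 in every library.

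In procollagen export 0 of 12 genes were called by edgeR, while 2 had an unadjusted p under 0.05 and 2 were called by DESeq2. These were *Creb3l1*, a transcription factor gene of the secretory pathway with a log2 difference of -0.66 (adjusted p = 0.08 in edgeR and 0.0123 in DESeq2), and *Mia3*. *Mia3*, named after its value was seen, encodes the export receptor TANGO1 and had -0.625 (edgeR adjusted p = 0.0502, DESeq2 0.00423). Both lay lower in every Mkx-/- library than in any WT library. *Sec31a* and *Sar1a*, parts of the coat that carries procollagen out, had -0.08 and -0.31 (adjusted p = 0.859 and 0.447). Of 6 other protein disulfide isomerase and oxidase genes 0 were called by edgeR or DESeq2 and 1 had an unadjusted p under 0.05, with -0.03 for *Txndc5*, 0.36 for *Pdia3* and 0.27 for *Pdia6* (adjusted p = 0.963, 0.269 and 0.359).

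Among the 11 fibrillar procollagen chains, the clients of this machinery, 3 rose and 1 fell. *Col5a1* rose from 743 ± 140 to 3320 ± 483 CPM (log2 fold change 2.16, edgeR adjusted p = 0.00141) and *Col5a2* from 719 ± 52.7 to 1709 ± 227 CPM (1.25, adjusted p = 0.00445). Both encode type V collagen, which is mixed into type I fibrils and keeps part of its N-propeptide. *Col3a1* rose from 4615 ± 729 to 9806 ± 145 CPM (1.09, adjusted p = 0.0172), a call lost without WT replicate 3 or Mkx-/- replicate 2 or 3 (up to 0.0982). *Col11a2*, of type XI collagen, fell from 4013 ± 816 to 1216 ± 375 CPM (-1.72, adjusted p = 0.0107). The study counted it among the matrix genes that mark its tenocytes. Its partner *Col11a1* had -0.26 (adjusted p = 0.544).

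*Adamts2* had the smallest p of the 10 genes, and the genes whose log2 CPM followed it closely over the 6 libraries, among 10294 genes averaging 5 CPM or more, included *Clybl* (Pearson r = 0.997), *Fgfr4* (0.996), *Pla2g5* (0.9953) and *Fosb* (0.993). These 4 lay lower in every Mkx-/- library, and each r is taken over both genotypes together. They were picked by r with a gene whose genotypes did not overlap, so their direction follows from the choice and is no separate result.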

How the data were processed

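Tail tendon RNA-seq libraries of both genotypes (3 WT, 3 Mkx-/-) were analysed in bulk. The authors aligned reads to mm9 with MapSplice 2.1.6 and deposited the counts of reads on each symbol, unnormalized and whole. The program and annotation used for counting, and its treatment of strand and multiple matches, are not given in the sources used here, so reads of overlapping genes cannot be told apart. All 6 columns were matched to samples by label and 0 were left unused.

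Library sizes were scaled with TMM in edgeR 4.0.16 (R 4.3.3), low counts were removed with filterByExpr (14550 of 44788 symbols kept), and genotypes were compared with the quasi-likelihood test (robust = FALSE, prior count 0.125) and Benjamini-Hochberg adjustment. Standard errors are the log2 fold change divided by the square root of F. DESeq2 1.42.0 was an alternative. Scripts were tested on simulated counts. Ratios within a library were compared with two-sided exact permutation tests. No pair of replicates agreed within sampling noise (chi-square per degree of freedom 7.59 or more). Depths of 10835070 to 14160301 counts per library leave *P4ha2*, with as few as 74 counts, the largest relative counting error.

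The 10 genes and all lists were chosen with earlier results of these data known, and the shares within a gene family after the counts were seen. Named genes are the 10 members, called genes of the lists, at most 3 others of a list by mean CPM, and up to 5 genes closest to *Adamts2*, of which 1 is not reported here. Alternatives were RLE, upper-quartile and library-size scaling, 2 other filters, removal of abundant or muscle genes, a robust fit, DESeq2, a replicate block, and each library left out. Coordinates come from GENCODE on mm9. Single-cell data of the study were not analysed here.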

Additional observations from a re-analysis of the deposited data

How the results depend on the processing

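*Adamts2* was called lower in every setting run. The count of the 10 genes called higher was 2, with and without the fold rule, under library-size scaling, DESeq2 and no filter but 1 count, since *P4ha3* was added, and 0 to 1 with single libraries left out (0 without WT or Mkx-/- replicate 3). Scaling by library size alone called 1358 genes higher and 197 lower, against 463 and 329 with TMM. It turned the sign of 5 genes that were not called, to 0.071 for *P4hb*, 0.25 for *Serpinh1*, 0.205 for *Crtap*, 0.235 for *Bmp1* and 0.17 for *Pcolce*. For all genes, DESeq2 called 787 higher and 588 lower, no filter 970 and 594, and the replicate block 264 and 170. With the fold rule, 711 genes were higher by library size and 541 higher and 322 lower without the filter. Leaving out a library gave 117 to 539 genes higher and 127 to 439 lower, or 103 to 321 and 112 to 248 with the fold rule. Of the related pathway genes, 11 rose by library size, 3 rose under the replicate block, 7 fell in DESeq2, 6 without a filter and 5 in the robust fit, with 3 to 6 rising and 2 to 5 falling when a library was left out. With a library left out, log2 fold changes ran from -0.22 to 0.14 for *Serpinh1*, -0.23 to 0.079 for *Crtap*, -0.14 to 0.19 for *Ppib*, -0.16 to 0.07 for *Bmp1* and -0.28 to 0.051 for *Pcolce*, and the log2 ratio of *Pcolce* to *Bmp1* from -0.129 to 0.011. The share of *P4ha2* and *P4ha3* differed by 9.24 percentage points on counts and by 14.17 per length. Replicate numbers showed no clear pairing of the samples, as same-numbered deviations correlated at 0.026, -0.21 and 0.297. With 3 libraries per group such correlations cannot settle whether samples were paired. A block on replicate numbers left 1 of the 10 genes higher and 1 lower, with *Serpinh1* at 0.003. The block ended the calls of *Pcsk6*, *Adamts3*, *Col3a1* and *Fkbp9* (edgeR adjusted p = 0.0587, 0.0897, 0.0674 and 0.121). Where no alternative's construction shows it, the cause was not tested. Counts of 74 to 534 in *P4ha2* and *P4ha3* and 3 libraries per group limit what could be detected.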
